A study of Mus musculus with 6 samples.

Results

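The Polycomb repressive complex genes described here are 10 genes, taken by name from a table of 49671 mouse gene identifiers: the PRC2 subunits Ezh1, Ezh2, Eed and Suz12, the PRC1 subunits Bmi1, Ring1, Rnf2, Cbx2 and Cbx7, and Asxl1. All 10 were found in the table and all 10 passed the filter on low counts, with 118 to 7734 reads per gene and library. Asxl1 is not a subunit of PRC1 or PRC2: its protein belongs to the Polycomb repressive deubiquitinase (PR-DUB). With a hairpin against Cxxc5, 0 of the 10 genes were called at an adjusted p under 0.05 over the 6 libraries, where 0% of all genes were called by edgeR, and 0 had an unadjusted p under 0.05. Ratios between libraries of the same replicate number, called pairs below, lay between 0.804 and 1.29. In replicates 3 and 4 alone 1 of the 10, Asxl1, passed, against 20.0% of genes.

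Polycomb proteins keep genes silent through chromatin. PRC2 methylates lysine 27 of histone H3, and PRC1 attaches ubiquitin to histone H2A and compacts chromatin, partly where its CBX subunits bind the PRC2 mark. The PR-DUB enzyme removes that ubiquitin. In blood stem cells these complexes are known for holding back differentiation genes and the cell-cycle inhibitors of the Cdkn2a locus, and Bmi1 is required for self-renewal of adult blood stem cells.

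Messenger RNA was sequenced from LSK cells of BALB/c mice, the marrow fraction without lineage antigens that carries Sca-1 and Kit on its surface and holds stem cells and multipotent progenitors. In the 3 shCxxc5 libraries the cells carried a retrovirus with a short hairpin against Cxxc5, whose protein binds unmethylated CpG DNA. In the 3 shCtrl libraries the cells carried a retrovirus that targets no mouse gene. Both groups started from marrow enriched for stem and progenitor cells and were sorted as GFP-positive LSK cells, so uninfected cells were left out. Each library pooled several animals and came from 20000 to 50000 cells, the hairpin group carries 1 name, and the age of the animals is not given. Replicates are numbered 2, 3 and 4 in each group, and it is not stated what a number marks. The p-values below therefore rest on the spread between libraries, which may be technical.

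Total counts were 16558791 to 27754019 in shCxxc5 libraries and 15002414 to 23285446 in shCtrl libraries. Cxxc5 was at 6.74, 17.4 and 17.9 CPM (reads of a gene relative to the whole library, scaled by the trimmed mean of M values) in shCxxc5 replicates 2, 3 and 4, against 82.2, 59.9 and 57.9 CPM in shCtrl replicates 2, 3 and 4. Every shCxxc5 library was below every shCtrl library. Both replicate 2 libraries stood apart from the others. Ly6a, which encodes the sort antigen Sca-1, was at 33.1 CPM in shCxxc5 replicate 2 and 46.4 CPM in shCtrl replicate 2, against 703 to 804 CPM in the other 4 libraries. Kit, the other sort antigen, was at 99.6 to 110 CPM in shCxxc5 libraries and 82.4 to 107 CPM in shCtrl libraries. Summed over 10 megakaryocyte markers, led by Itgb3 and Itga2b, the level was 1635, 309 and 300 CPM in shCxxc5 replicates 2, 3 and 4, against 6910, 487 and 485 CPM in shCtrl. Summed over 10 granulocyte and monocyte markers, led by Mpo and Prtn3, it was 5879, 1343 and 1371 CPM in shCxxc5 replicates 2, 3 and 4, against 882, 1189 and 1211 CPM in shCtrl. That sum does not stand for every marker in its list. Over 6 libraries the log2 fold change was above 0 for 7 of these 10 and below 0 for 3, and 0 were called. In replicates 3 and 4 edgeR called 3 higher and 2 lower at an adjusted p under 0.05, beside 20.0% of all genes. The list median there was -0.05 on the log2 scale. Of 10 lymphoid markers 7 stayed under 1 CPM in every library and Cd3e was at 0. For this reason each result below is given over all 6 libraries, within each replicate number, and in replicates 3 and 4 alone. Bulk RNA cannot tell fewer cells of a type from less RNA per cell.

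Promoter-side sequences of 2 members, from RefSeq (build GRCm38.p6), show the range of CG content among them.
Asxl1: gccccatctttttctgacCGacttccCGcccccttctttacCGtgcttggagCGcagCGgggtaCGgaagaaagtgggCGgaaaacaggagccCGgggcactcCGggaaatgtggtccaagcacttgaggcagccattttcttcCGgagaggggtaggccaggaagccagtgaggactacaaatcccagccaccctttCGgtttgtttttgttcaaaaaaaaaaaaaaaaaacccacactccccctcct
Suz12: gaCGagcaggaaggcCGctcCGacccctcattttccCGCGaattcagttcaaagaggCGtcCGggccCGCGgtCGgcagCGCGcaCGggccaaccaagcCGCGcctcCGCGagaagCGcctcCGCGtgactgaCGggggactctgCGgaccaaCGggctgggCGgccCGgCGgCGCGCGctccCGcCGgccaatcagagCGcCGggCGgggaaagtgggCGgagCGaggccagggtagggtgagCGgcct
Asxl1 is shown because it was the 1 member to pass the test in replicates 3 and 4, and Suz12 because it had the highest ratio of any member within a pair. The Asxl1 stretch lies at chr2:153345580-153345828 and the Suz12 stretch at chr11:79992856-79993105, both on the plus strand, each ending at the base before the annotated gene start. CG dinucleotides, the form of DNA that CXXC domains recognise when it is unmethylated, are in capitals. The Asxl1 stretch holds 11 of them in 249 bases and the Suz12 stretch 37 in 250 bases.

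The only motif searched was CG, which reads the same on both strands and cannot overlap itself. In windows of 300 bases (250 before the start and 50 after), a RefSeq promoter was matched by symbol for 9 of the 10 members; Cbx2 is not in the table used. At least 1 CG was present in 94.2% of the 27025 genes with such a window, with a median of 7. The 9 member windows held 13 (Asxl1) to 41 (Suz12), so all 9 were above that median. Eed had 17, Ezh1 and Bmi1 had 23 each, Rnf2 had 30, Ezh2 had 31, Cbx7 had 33 and Ring1 had 37. Fewer CG dinucleotides than in the Asxl1 window were found for 61.5% of genes, and fewer than in the Suz12 window for 96.7%. Of the 250 bases before the start, annotated exons cover 250 for Eed, 191 for Asxl1, 125 for Ezh2 and 122 for Cbx7. They cover 0 for Suz12, Bmi1, Ezh1, Ring1 and Rnf2. The Cbx7 window, at chr15:79932597-79932896, lies inside the annotated span of that gene. The Ezh2 window, at chr6:47594981-47595280, likewise lies inside the annotated span of Ezh2. The CG counts describe the letters of the windows; neither binding nor methylation was measured.

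**Figure D1:**
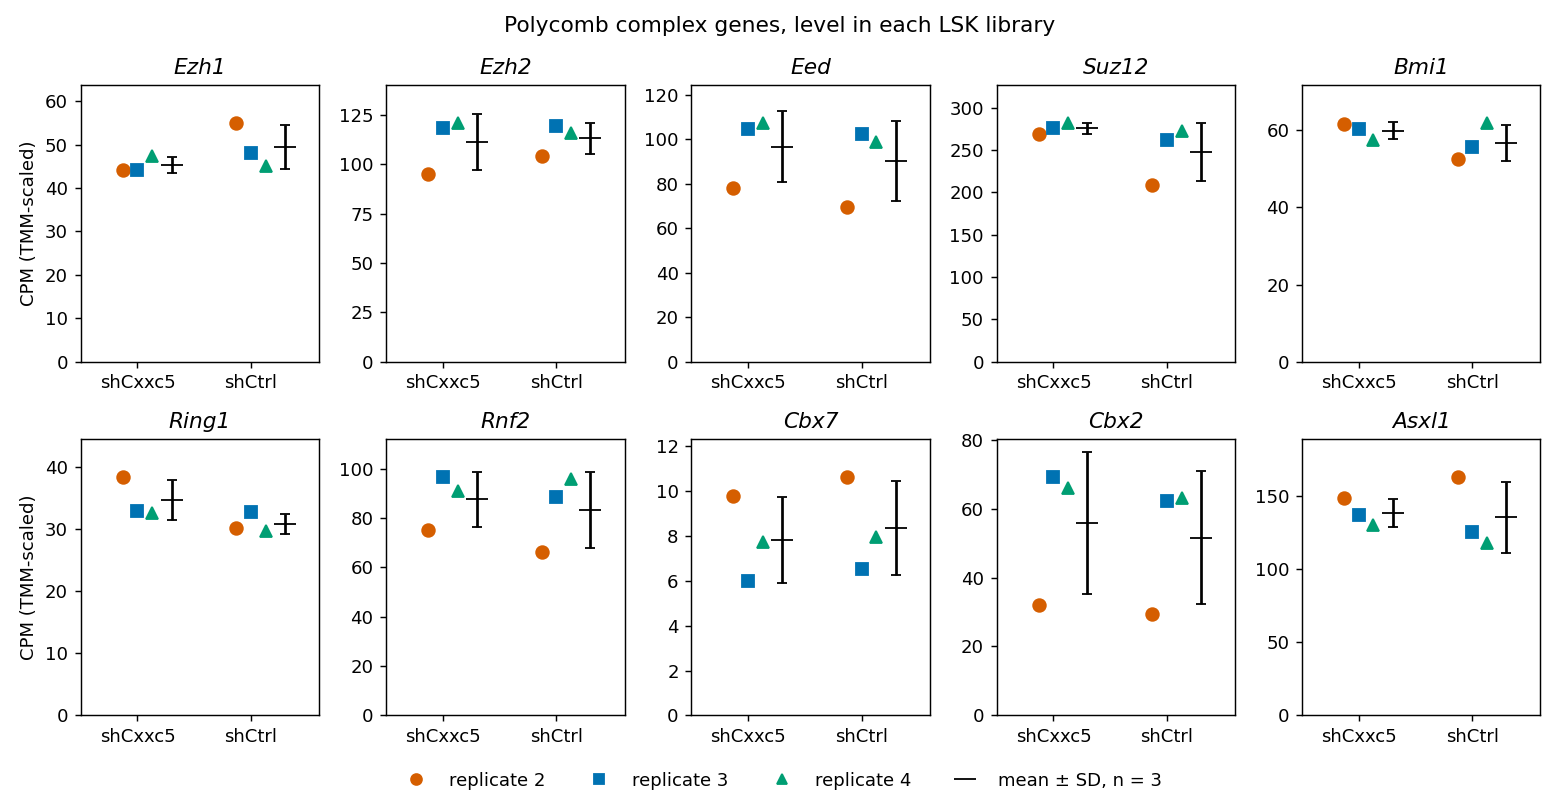
Level of each of the 10 genes in every library, in CPM on axes that start at 0, with shCxxc5 to the left of shCtrl in each panel; points are single libraries, marked by replicate number, and bars are the mean ± SD (n = 3). The groups overlap for all 10 genes, while the replicate 2 points of Cbx2 (32.0 and 29.3 CPM) lie far below the others (62.4 to 69.3 CPM).

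Ezh2 (ENSMUSG00000029687, GRCm38 chr6:47530139-47595341, minus strand) encodes the main methyltransferase of PRC2 in dividing cells. It was at 95.1, 118 and 121 CPM in shCxxc5 replicates 2, 3 and 4, against 104, 119 and 116 CPM in shCtrl replicates 2, 3 and 4. The groups overlapped and the lowest value of each was replicate 2. The log2 fold change over 6 libraries was -0.02 (SE 0.12), and the ratio within pairs was 0.913, 0.992 and 1.04.

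Ezh1 (ENSMUSG00000006920, GRCm38 chr11:101191115-101226463, minus strand), the paralog of Ezh2 with weaker methyltransferase activity that is used more in quiescent cells, was at 44.2, 44.2 and 47.4 CPM in shCxxc5 and at 54.9, 48.0 and 45.1 CPM in shCtrl. The groups overlapped, since shCxxc5 replicate 4 exceeded shCtrl replicate 4. Its log2 fold change of -0.13 (SE 0.11) was the lowest of the 10 over 6 libraries. Within pair 2 its ratio was 0.804, with a 95% exact counting interval of 0.743 to 0.869. Per kilobase of exon, Ezh2 made up 73.1% ± 2.27 of the sum of Ezh1 and Ezh2 in shCxxc5 and 71.8% ± 3.42 in shCtrl (SD, n = 3 each), with overlapping groups.

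Eed (ENSMUSG00000030619, GRCm38 chr7:89954654-89980983, minus strand) encodes the subunit that binds methylated lysine 27 and stimulates the enzyme. Its level was 78.2, 105 and 107 CPM in shCxxc5 replicates 2, 3 and 4, against 69.4, 102 and 98.9 CPM in shCtrl. In each pair the shCxxc5 library was the higher one, by 1.13, 1.02 and 1.09 times, but the spread between replicate numbers was wider and the groups overlapped.

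Suz12 (ENSMUSG00000017548, GRCm38 chr11:79993106-80034123, plus strand), the scaffold that holds PRC2 together, was at 269, 276 and 282 CPM in shCxxc5 replicates 2, 3 and 4, against 209, 262 and 273 CPM in shCtrl. The shCtrl replicate 2 library was the low one of the 6, and the groups overlapped because shCtrl replicate 4 was above shCxxc5 replicate 2. The ratio was 1.29 in pair 2 (95% interval 1.24 to 1.33), 1.05 in pair 3 and 1.03 in pair 4. Over 6 libraries the log2 fold change was 0.15 (SE 0.12).

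Bmi1 (ENSMUSG00000026739, GRCm38 chr2:18677018-18686629, plus strand), the PCGF subunit of PRC1, was at 61.7, 60.4 and 57.5 CPM in shCxxc5 replicates 2, 3 and 4, against 52.4, 55.8 and 61.8 CPM in shCtrl. The highest of the 6 values was shCtrl replicate 4 and the groups overlapped. The pair ratios were 1.18, 1.08 and 0.931, so pair 4 went the other way. Of the 6 PCGF genes, Bmi1 took 40.4% ± 3.43 of the summed level per kilobase in shCxxc5 and 40.1% ± 1.54 in shCtrl (SD, n = 3 each). Of its transcript's 50-base stretches, 16.7% are shared with 2 other annotated genes, so part of its count depends on how such reads were assigned.

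Ring1 and Rnf2 encode the alternative ubiquitin ligases of PRC1. Ring1 (ENSMUSG00000024325, GRCm38 chr17:34020792-34024680, minus strand) was at 38.5, 33.0 and 32.7 CPM in shCxxc5 replicates 2, 3 and 4, against 30.2, 32.8 and 29.7 CPM in shCtrl. Among the 10 genes its log2 fold change over 6 libraries was the highest, at 0.17 (SE 0.11). The groups overlapped only through shCtrl replicate 3, which was just above shCxxc5 replicate 4. Rnf2 (ENSMUSG00000026484, GRCm38 chr1:151458004-151500955, minus strand) was at 75.2, 96.8 and 90.9 CPM in shCxxc5, against 66.2, 88.6 and 95.7 CPM in shCtrl. Its groups overlapped, with replicate 2 lowest in both. Trmt1l, on the opposite strand, overlaps 158 exon bases of Rnf2 and had 765 to 1301 counts per library. Rnf2 took 66.3% ± 4.99 of the summed level per kilobase of both ligase genes in shCxxc5 and 67.7% ± 4.22 in shCtrl (SD, n = 3 each).

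Cbx2 and Cbx7 encode chromodomain subunits of PRC1 that read methylated lysine 27. Cbx2 (ENSMUSG00000025577, GRCm38 chr11:119022962-119031270, plus strand) was at 32.0, 69.3 and 66.1 CPM in shCxxc5 replicates 2, 3 and 4, against 29.3, 62.4 and 63.1 CPM in shCtrl. Within every pair shCxxc5 was higher, by 1.09, 1.11 and 1.05 times, while replicate 2 was the low library of both groups, so the groups overlapped. Cbx7 (ENSMUSG00000053411, GRCm38 chr15:79915807-79971119, minus strand), linked to stem cell self-renewal, was at 9.80, 5.97 and 7.72 CPM in shCxxc5 and 10.6, 6.51 and 7.94 CPM in shCtrl. It was the only member lower with the hairpin in all 3 pairs, with ratios of 0.920, 0.917 and 0.972, and each of those 3 counting intervals contained 1. Apobec3, on the opposite strand, overlaps 100 exon bases of Cbx7 and had 826 to 1365 counts per library, against 118 to 282 for Cbx7; whether counting used strand is not given in the sources used here.

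Among the 5 Polycomb CBX genes, Cbx2 took 22.5%, 41.1% and 40.3% of the summed level per kilobase in shCxxc5 replicates 2, 3 and 4, against 24.4%, 36.7% and 36.3% in shCtrl. Cbx7 took 3.31% ± 1.11 in shCxxc5 and 3.78% ± 1.78 in shCtrl (SD, n = 3 each). In replicates 3 and 4 the Cbx2 share was therefore higher in both shCxxc5 libraries than in both shCtrl libraries, while in replicate 2 it was lower in shCxxc5. No test was made on these shares.

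Asxl1 (ENSMUSG00000042548, GRCm38 chr2:153345829-153404007, plus strand), the PR-DUB subunit that activates the deubiquitinase Bap1 and is often mutated in human myeloid disease, was at 149, 137 and 130 CPM in shCxxc5 replicates 2, 3 and 4, against 163, 126 and 118 CPM in shCtrl. The highest of the 6 values was shCtrl replicate 2, so the groups overlapped. The ratio was 0.913 in pair 2 (95% interval 0.874 to 0.953), 1.09 in pair 3 (1.04 to 1.15) and 1.11 in pair 4 (1.04 to 1.18). Asxl1 made up 71.1% ± 2.33 of the level per kilobase of Asxl1 and its paralog Asxl2 in shCxxc5 and 70.4% ± 2.55 in shCtrl (SD, n = 3 each).

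**Figure D2:**
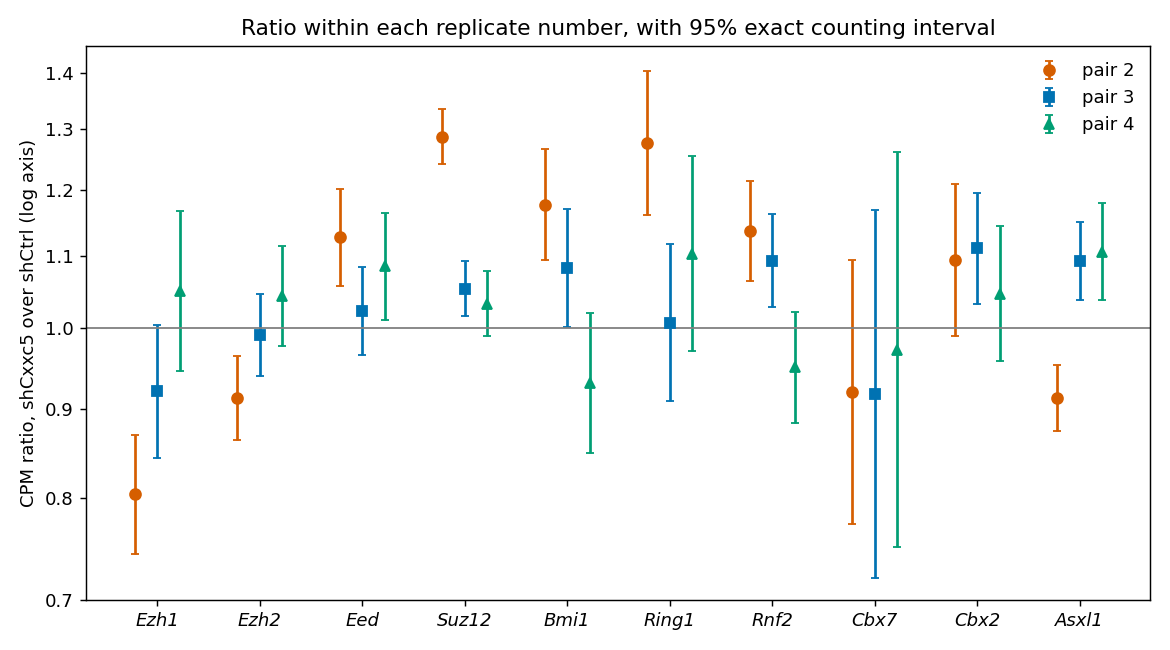
Ratio of shCxxc5 over shCtrl CPM for each gene within replicate numbers 2, 3 and 4, on a log axis, with 95% exact counting intervals. Eed, Suz12, Ring1 and Cbx2 lie above 1 in all 3 pairs, Cbx7 lies below 1 in all 3, and Asxl1 lies below 1 in pair 2 and above it in the other pairs.

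Tested over all 6 libraries with edgeR's quasi-likelihood test and Benjamini-Hochberg adjustment, 0 of the 10 members were called. The same was true of all 14637 genes tested (0% called). Cxxc5 itself, at a log2 fold change of -2.25, was thus not called by edgeR either, so this test missed even the targeted gene. DESeq2 called Cxxc5 (adjusted p = 7.17e-05). At an unadjusted p under 0.05 there were also 0 members, against 3.93% of genes. DESeq2, limma-voom and fits with the replicate number as a block called 0 members too. Over all genes DESeq2 called 0.0474% and, with the block, 1.22%, while limma-voom and the block in edgeR called 0%. The members' log2 fold changes ran from -0.13 (Ezh1) to 0.17 (Ring1), with a median of 0.08, beside a median of -0.02 over all genes. For 0 of the 10 the groups were free of overlap in CPM, a state met by 13.1% of genes. The biological coefficient of variation was 0.312 over 6 libraries and 0.0294 in replicates 3 and 4.

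Within pairs, Eed, Suz12, Ring1 and Cbx2 were higher in shCxxc5 in all 3, as were 19.0% of genes, and Cbx7 was lower in all 3, as were 22.4% of genes. The other 5 members had mixed directions. Counting intervals lay above 1 for 5 members and below 1 for 3 in pair 2, above 1 for 5 and below 1 for 0 in pair 3, and above 1 for 2 and below 1 for 0 in pair 4. These intervals cover counting error only. The share of all genes with such an interval was not counted, so these counts do not set the members apart from other genes. The median absolute log2 ratio of the members was 0.18, 0.12 and 0.07 in pairs 2, 3 and 4, beside 0.31, 0.15 and 0.16 over all genes.

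In replicates 3 and 4 alone, with 2 libraries a group, 1 of the 10 members was called, against 20.0% of 14193 genes. Asxl1 rose, by 0.14 on the log2 scale (SE 0.05, edgeR adjusted p = 0.0273). Its 137 and 130 CPM in shCxxc5 were above 126 and 118 CPM in shCtrl without overlap. The call was lost with DESeq2 (adjusted p = 0.170; 10.7% of genes called), with DESeq2 and the replicate block (adjusted p = 0.372; 6.81% called), with library totals as the only scaling (edgeR, 0.0819), with upper-quartile scaling (0.0633), without shCxxc5 replicate 3 (0.320) and without shCtrl replicate 4 (0.210). With the block in edgeR it was 0.00912. An antisense gene, 2500004C02Rik, overlaps 197 exon bases of Asxl1 and had 57 to 122 counts per library, against 1751 to 4292 for Asxl1.

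Cbx2, at 0.12 (SE 0.06, edgeR adjusted p = 0.138), had an unadjusted p of 0.0412 and missed the threshold. Eed at 0.08 (SE 0.05), Suz12 at 0.07 (SE 0.04), Ring1 at 0.07 (SE 0.08), Rnf2 at 0.04 (SE 0.05), Ezh2 at 0.03 (SE 0.04), Bmi1 at 0.02 (SE 0.06), Ezh1 at -0.03 (SE 0.07) and Cbx7 at -0.07 (SE 0.16) did not pass either. Cbx7, the member with the fewest counts, had the widest standard error. Eed, Suz12, Cbx2 and Asxl1 were higher without overlap, 4 of 10, against 27.8% of genes. Lower without overlap were 0 of 10, against 29.4% of genes. In either direction 57.2% of genes were free of overlap, so the members did not exceed that share. The members' median was 0.05 and that of all genes -0.0030. In the same libraries a list of 15 S phase genes, led by Mcm6 and Mcm3, was summed. The sum was 5170 and 5079 CPM in shCxxc5, against 4537 and 4597 CPM in shCtrl. Of these 15 genes, 14 had a log2 fold change above 0 and 1 below 0. There edgeR called 12 higher and 0 lower at an adjusted p under 0.05, beside 20.0% of all genes in either direction. In pair 2 the S phase sum was 4225 CPM in shCxxc5 and 4025 CPM in shCtrl. Its part in the member values was not tested.

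The libraries were then compared by replicate number. With the group kept in the fit, 6 of 10 members differed between replicate 2 and replicates 3 and 4, against 36.4% of genes by the same edgeR test and adjustment. Cbx2 was lower in replicate 2 by the most, with a log2 fold change of -1.09 (SE 0.07, adjusted p = 0.000146). Eed at -0.49 (SE 0.06, adjusted p = 0.00183), Rnf2 at -0.40 (SE 0.07, adjusted p = 0.00804) and Ezh2 at -0.25 (SE 0.06, adjusted p = 0.0204) were lower as well. Cbx7 at 0.54 (SE 0.16, adjusted p = 0.0372) and Asxl1 at 0.29 (SE 0.08, adjusted p = 0.0268) were higher in replicate 2. Suz12 at -0.20 (adjusted p = 0.0868), Ezh1, Bmi1 and Ring1 did not pass. Leaving out single libraries gave 3 to 8 calls: 3 without shCxxc5 replicate 4 or without shCtrl replicate 3, and 8 without shCxxc5 replicate 2. What a replicate number stands for, and the marker levels given above, cannot be told apart here.

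**Figure D3:**
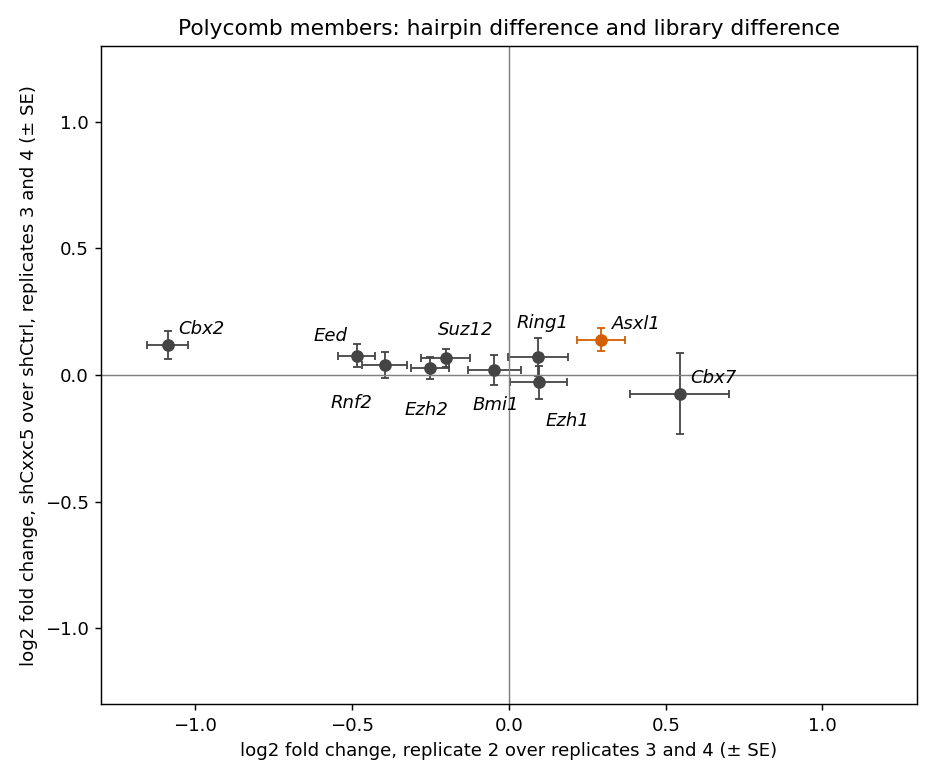
For each member, the log2 fold change of shCxxc5 over shCtrl in replicates 3 and 4 (vertical axis) against the log2 fold change of replicate 2 over replicates 3 and 4 (horizontal axis), with SE bars and the same range of values on both axes. Horizontal values run from -1.09 for Cbx2 to 0.54 for Cbx7 and vertical values from -0.07 to 0.14; Asxl1, the member called with the hairpin, is in orange.

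A term for the difference of the hairpin's effect between replicate 2 and replicates 3 and 4 called 3 of 10 members, against 35.8% of genes. That fit has 1 library per group in replicate 2 and assumes that these vary like the others. The hairpin difference of Suz12 was larger in pair 2, by 0.30 on the log2 scale (SE 0.06, edgeR adjusted p = 0.000244). For Asxl1 it was lower in pair 2, by -0.27 (SE 0.07, edgeR adjusted p = 0.00410), which is where its ratio of 0.913 stands against 1.09 and 1.11. For Ezh1 it was also lower, by -0.28 (SE 0.11, edgeR adjusted p = 0.0360). With DESeq2 this term called 1 member, Suz12, against 17.2% of genes, and Asxl1 (adjusted p = 0.171) and Ezh1 (adjusted p = 0.414) were not called. With library totals as the only scaling Ezh1 was lost (edgeR adjusted p = 0.0929), while Bmi1 (0.0337) and Ring1 (0.0336) were called as larger in pair 2. Ezh1 was also lost without shCxxc5 replicate 4 (0.168) or shCtrl replicate 4 (0.0870), and Asxl1 without shCxxc5 replicate 3 (0.0563). Bmi1 was called without shCtrl replicate 3 (0.0170) and Ring1 without shCtrl replicate 4 (0.0279). Suz12 was called under each of these settings.

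**Figure D4:**
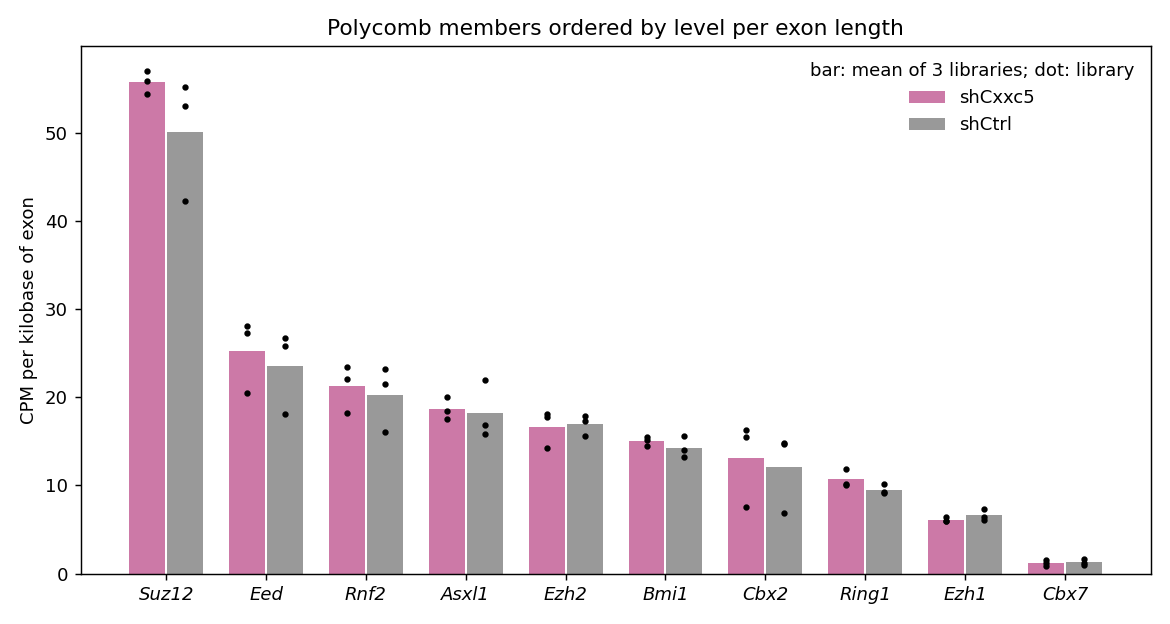
Level of each member per kilobase of exon (CPM per kilobase, axis from 0), genes ordered by level; bars are group means, points single libraries, and shCxxc5 stands left of shCtrl for each gene. Suz12 stands above and Cbx7 below the others in every library, while the genes from Eed to Ring1 form a continuous range.

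Levels of different genes were compared per kilobase of exon. Suz12 was highest, at 55.7 ± 1.33 CPM per kilobase in shCxxc5 and 50.1 ± 6.92 in shCtrl (SD, n = 3 each here and below). Next came Eed at 25.3 ± 4.20 in shCxxc5 and 23.6 ± 4.72 in shCtrl, and Rnf2 at 21.2 ± 2.70 in shCxxc5 and 20.2 ± 3.73 in shCtrl. Asxl1 followed at 18.6 ± 1.28 in shCxxc5 and 18.2 ± 3.28 in shCtrl. Every Suz12 library was above every Eed library, whereas the ranges of Eed, Rnf2 and Asxl1 ran into each other.

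Ezh2 was at 16.7 ± 2.13 CPM per kilobase in shCxxc5 and 16.9 ± 1.19 in shCtrl, Bmi1 at 15.1 ± 0.535 in shCxxc5 and 14.3 ± 1.197 in shCtrl, and Cbx2 at 13.1 ± 4.85 in shCxxc5 and 12.1 ± 4.54 in shCtrl. Ring1 was at 10.7 ± 1.001 in shCxxc5 and 9.52 ± 0.516 in shCtrl. Neighbours in this stretch of the order overlapped between libraries. Ezh1, at 6.08 ± 0.252 CPM per kilobase in shCxxc5 and 6.63 ± 0.677 in shCtrl, was below Ring1 in every library, and Cbx7, at 1.21 ± 0.295 in shCxxc5 and 1.29 ± 0.324 in shCtrl, was below Ezh1 in every library. The order of the means was the same in both groups.

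Across the 6 libraries, the 3 genes closest to Ezh2 in log2 CPM, of 10990 compared, were Elmo1 and Zfp667 (both at a Pearson r of 0.998) and Casp2 (0.997). Closest to Bmi1 were Wrap73 (0.973), Terf2 (0.968) and Narfl (0.967). Among the members, Ezh2 had an r of 0.917 with Cbx2, 0.866 with Eed and 0.784 with Rnf2, and of -0.803 with Cbx7. Bmi1 had an r of 0.791 with Suz12 and of -0.951 with Ezh1. These values describe likeness over libraries that share the distance of replicate 2.

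Beyond the 10 members, 66 genes in 5 lists of the wider Polycomb machinery and its known targets were followed, of which 61 were tested. Over 6 libraries 0 of them were called by edgeR and 1, Rybp, had an unadjusted p under 0.05; DESeq2, limma-voom and the fits with the block also called 0. In replicates 3 and 4, 11 of 61 were called (18%, against 20.0% of all genes), 9 higher and 2 lower. Their median log2 fold change was 0.02. DESeq2 called 7 of the 61 there and, with the replicate block, 1, Rbbp7; the calls that these fits lost are given beside each gene below. The block in edgeR and limma-voom kept the call of each gene named below as rising or falling.

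Of 9 PRC2 accessory subunits, edgeR called 2 higher and 1 lower in replicates 3 and 4, beside 20.0% of all genes in either direction. Epop, which links PRC2 to elongin, rose by 0.34 on the log2 scale (SE 0.08, edgeR adjusted p = 0.00158), and the histone chaperone gene Rbbp7 rose by 0.16 (SE 0.03, edgeR adjusted p = 0.000622). With DESeq2 and the block Rbbp7 kept its call (adjusted p = 0.0306) and Epop lost it (adjusted p = 0.190). In pair 2 Epop went the opposite way, at 25.3 CPM in shCxxc5 and 29.2 CPM in shCtrl. Jarid2, a cofactor that guides PRC2 to chromatin, fell by 0.18 (SE 0.04, edgeR adjusted p = 0.00241), a call lost with DESeq2 and the block (adjusted p = 0.183). Jarid2 was at 212, 127 and 124 CPM in shCxxc5 replicates 2, 3 and 4, against 393, 146 and 140 CPM in shCtrl, so it was lower with the hairpin in all 3 pairs and highest in replicate 2 of either group. Aebp2, another PRC2 cofactor, had a log2 fold change of -0.01 (edgeR adjusted p = 0.906).

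Of 26 other PRC1 subunits, 5 were called by edgeR in replicates 3 and 4, of which 4 rose, beside 20.0% of all genes called. Rybp, a subunit of variant PRC1, rose by 0.33 (SE 0.11, edgeR adjusted p = 0.0358), but the call was lost with DESeq2 (adjusted p = 0.310) and with DESeq2 and the block (0.547). Its level was 13.8, 14.9 and 13.6 CPM in shCxxc5 replicates 2, 3 and 4, against 10.7, 11.5 and 11.5 CPM in shCtrl. The groups did not overlap over all 6 libraries, a state met by 13.1% of genes. Pcgf1 and Pcgf2, named after their values were seen, were also free of overlap there, but lower in shCxxc5. Pcgf3 rose by 0.26 (SE 0.07), L3mbtl2, a subunit of the PCGF6 complex, by 0.26 (SE 0.05) and the deubiquitinase gene Usp7 by 0.11 (SE 0.03). Usp7 was named after its value was seen. Pcgf3 lost its call with DESeq2 (adjusted p = 0.0833) and with DESeq2 and the block (0.240). With DESeq2 and the block L3mbtl2 (adjusted p = 0.0698) and Usp7 (adjusted p = 0.227) were not called either. In pair 2 Pcgf3 was at 42.8 CPM in shCxxc5 and 58.6 CPM in shCtrl, and Usp7 at 390 CPM in shCxxc5 and 432 CPM in shCtrl, both in the opposite direction.

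Of 9 tested PR-DUB subunits edgeR called 1 in replicates 3 and 4, beside 20.0% of all genes. Ogt, the O-GlcNAc transferase gene, rose by 0.12 (SE 0.04, edgeR adjusted p = 0.0242). Its call was lost with DESeq2 (adjusted p = 0.13) and with DESeq2 and the block (0.371). Foxk2 at 0.10 and Foxk1 at -0.17, which encode DNA-binding partners of Bap1, and Mbd5 at -0.04 did not pass. Of 9 demethylase and trithorax genes, which counter Polycomb silencing, 1 was called, beside the same 20.0% of all genes. Men1, which encodes menin, rose by 0.19 (SE 0.04, edgeR adjusted p = 0.00209), a call lost with DESeq2 and the block (adjusted p = 0.168). The lysine 27 demethylase genes Kdm6b, at -0.37 (SE 0.16, edgeR adjusted p = 0.106), and Kdm6a, at -0.09 (SE 0.05, edgeR adjusted p = 0.196), did not pass.

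Of 12 genes known as Polycomb targets, 8 were tested. In replicates 3 and 4 only Hmga2, a fetal-type chromatin gene, passed, beside 20.0% of all genes. Hmga2 rose by 0.29 (SE 0.09, edgeR adjusted p = 0.0241), at 13.2, 22.4 and 23.2 CPM in shCxxc5 replicates 2, 3 and 4, against 8.79, 19.8 and 17.1 CPM in shCtrl. It was higher with the hairpin in each pair. The Hmga2 call was lost with DESeq2 (adjusted p = 0.206) and with DESeq2 and the block (0.421). Hoxa10 at -0.31 (edgeR adjusted p = 0.0620) and Hoxa7 at 0.19 (edgeR adjusted p = 0.123), which encode homeobox factors, did not pass. Cdkn2a, the cell-cycle inhibitor locus that Bmi1 is known to repress, had at most 4 counts in a library and was not tested. Cdkn2b, Ebf1 and Pax5 had at most 18, 17 and 5 counts and were not tested either.

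**Figure D5:**
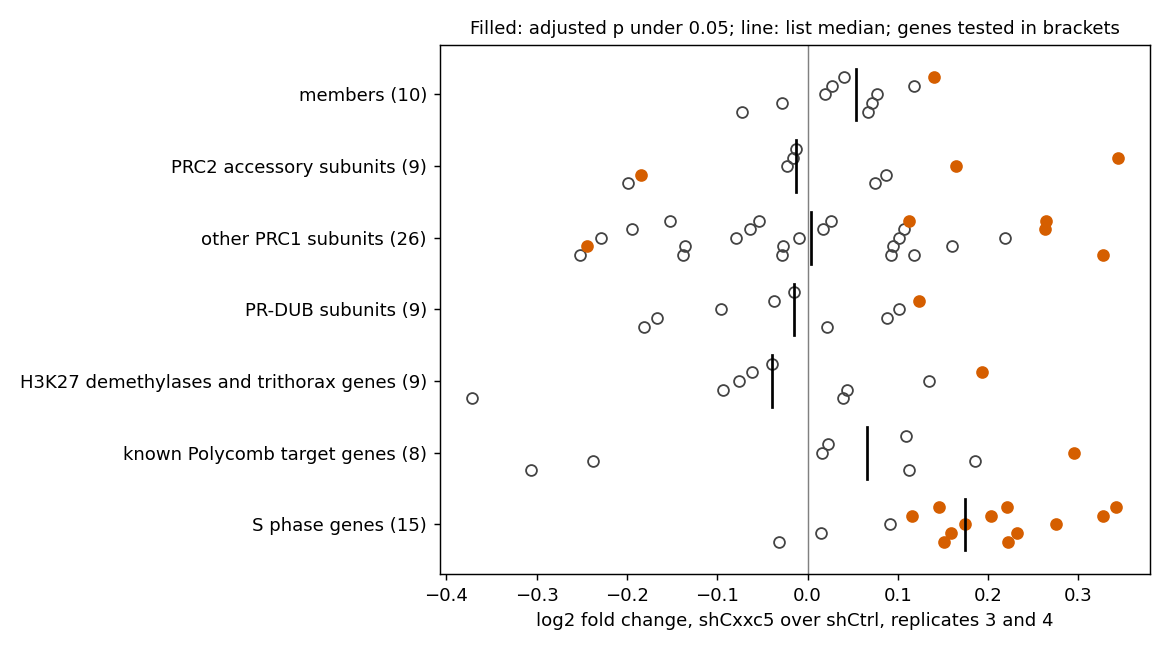
Log2 fold change of shCxxc5 over shCtrl in replicates 3 and 4 for the members and the genes of each wider list, and for S phase genes, with 1 point per tested gene, called genes filled and list medians as lines. Members lie between -0.07 and 0.14, and called genes lie on both sides of 0 in the PRC2 accessory list.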

How the data were processed

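Raw read counts per gene and library were deposited by the authors as 1 table. The submitters' processing notes name STAR 2.5.2b, featureCounts 1.5.1, DESeq2 and the build GRCm38. No source used here gives the annotation release or the strand setting of the counting. Per the labels' protocols, libraries came from a stranded mRNA kit. Of 49671 identifiers, 49412 matched GENCODE M21, which gave symbols, positions and exon lengths, and 22654 had 0 counts in all libraries.

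Counts were tested with edgeR 4.0.16 in R 4.3.3: TMM scaling, filterByExpr, the robust quasi-likelihood test and Benjamini-Hochberg adjustment over all genes tested, with a threshold of 0.05. Fold changes are shCxxc5 over shCtrl unless replicate 2 is named first. Standard errors (SE) were obtained from each fold change and its quasi-likelihood F (size of the change over the root of F). Pair ratios have exact 95% counting intervals, which leave out any spread between animals. The code was tested on simulated counts.

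Deviations from the group means correlated at 0.670, 0.554 and 0.489 between libraries numbered 2, 3 and 4. Across numbers 3 and 4, libraries of opposite groups gave 0.489 and 0.475. The check sets the libraries numbered 2 apart but cannot tell number 3 from number 4. Pairs 3 and 4 therefore rest on the shared number alone.

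Named genes were Cxxc5, the 10 members, from each wider list the 3 of smallest p in replicates 3 and 4 and the 1 of smallest p over 6 libraries, the 3 most like Ezh2 and Bmi1, and the 2 of highest mean per marker list. A gene that this rule takes is not reported here. Markers of the mast cell, erythroid and interferon lists are given in the closing section. The members and all lists were chosen with earlier results of these data known. Alternatives were DESeq2 1.42.0, limma-voom (limma 3.58.1), fitting without robustness, RLE, upper-quartile and library-total scaling, no filter or a CPM of at least 1, the replicate block, and leaving out each library.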

Additional observations from a re-analysis of the deposited data

How the results depend on the processing

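Over 6 libraries 0 members were called under every alternative run, the replicate block included, which called 0 of all genes (1796 at an unadjusted p under 0.05). DESeq2 called 7 genes in all and, with the replicate block, 144. In replicates 3 and 4, 0 members were called with DESeq2, with DESeq2 and the block, with library totals only and with upper-quartile scaling; 1 was called with the replicate block, as without it. There DESeq2 called 1230 of all genes and 618 with the block (2833 by edgeR), and 7 and 1 of the wider lists (11 by edgeR). The term for the difference between replicate 2 and replicates 3 and 4 called 1 member and 2215 genes with DESeq2 (3 and 5235 by edgeR). The cause was not tested. The block changed no other call on a member.

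Leaving out single libraries gave 0 to 0 members over 6 libraries, 0 to 1 in replicates 3 and 4 (1507 to 2043 genes, 7 to 8 of the wider lists), 3 to 8 for replicate 2 against replicates 3 and 4 (3183 to 8816 genes) and 2 to 4 for the difference term (4240 to 5116 genes). An arm left with 1 library is assumed to vary like the others.

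Values near 0 changed sign. Ezh2 over 6 libraries was 2.02e-05 with no filter on low counts. With library totals only, Ezh2 was -0.00018 and Bmi1 -0.0075 in replicates 3 and 4, Bmi1 was 0.015 for replicate 2 against replicates 3 and 4, and Cbx7 was 0.0090 for the difference term. Without single libraries the log2 fold changes over 6 libraries spanned -0.081 to 0.082 for Ezh2, -0.057 to 0.23 for Eed, -0.072 to 0.19 for Rnf2, -0.29 to 0.12 for Cbx7, -0.17 to 0.39 for Cbx2 and -0.047 to 0.19 for Asxl1. In replicates 3 and 4 they spanned -0.075 to 0.029 for Ezh1, -0.065 to 0.090 for Bmi1, -0.024 to 0.094 for Rnf2 and -0.25 to 0.12 for Cbx7. For replicate 2 against replicates 3 and 4 they spanned -1.39 to 0.48 for Cxxc5, -0.049 to 0.23 for Ezh1, -0.16 to 0.063 for Bmi1 and -0.060 to 0.23 for Ring1. For the difference term they spanned -0.23 to 0.14 for Cbx7 and -0.0063 to 0.062 for Cbx2.

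Of 100 member values each, 99 over 6 libraries and 94 in replicates 3 and 4 kept their direction and side of the threshold under the alternatives that keep every library. Of 30 member values each, 29 for replicate 2 against replicates 3 and 4 and 24 for the difference term did so; in the difference term 3 lost a call, 2 gained one and 1 changed sign. With 118 to 282 counts per library, depth limits Cbx7 the most.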

Other observations

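The remaining marker lists differed in how many genes were called between replicate 2 and replicates 3 and 4. At an edgeR adjusted p under 0.05, 10 of 10 interferon-response genes and 6 of 7 tested erythroid markers differed. Of the mast cell and basophil markers 2 of 8 did, and of the tested lymphoid markers 0 of 3, beside 36.4% of all genes. Summed over 10 interferon-response genes, led by Irf7 and Usp18, the level was 255, 1827 and 1813 CPM in shCxxc5 replicates 2, 3 and 4, against 294, 1922 and 1918 CPM in shCtrl. Summed over 8 mast cell and basophil markers, led by Cpa3 and Mcpt8, it was 1607, 461 and 438 CPM in shCxxc5, against 283, 457 and 464 CPM in shCtrl. Summed over 10 erythroid markers, led by Tfrc and Gata1, the level was 1109, 541 and 515 CPM in shCxxc5, against 567, 438 and 459 CPM in shCtrl. Summed over 10 lymphoid markers, led by Nkg7 and Il7r, it was 68.1, 41.7 and 40.9 CPM in shCxxc5, against 27.1, 41.7 and 44.9 CPM in shCtrl. Nkg7 alone averaged 44.2 CPM in shCxxc5 and 31.4 CPM in shCtrl, so that sum is mostly 1 gene. Of the 10, 7 stayed under 1 CPM in every library. The sum over the 10 Polycomb members was 852, 946 and 942 CPM in shCxxc5, against 789, 903 and 908 CPM in shCtrl.

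Of the 8 tested genes known as Polycomb targets, 1 was higher and 6 were lower in replicate 2 than in replicates 3 and 4 (edgeR's quasi-likelihood test, Benjamini-Hochberg adjusted p under 0.05, beside 36.4% of all genes in either direction). Lin28b, an RNA-binding protein gene of fetal blood progenitors named after its value was seen, was at 8.65 CPM in shCxxc5 replicate 2 and 10.3 CPM in shCtrl replicate 2, against 20.8 to 22.5 CPM in the other 4 libraries. Its log2 fold change of replicate 2 over replicates 3 and 4 was -1.21 (SE 0.11, edgeR adjusted p = 0.000680). Meis1, a homeobox gene of stem cells also named after its value was seen, was the higher one, at 146 CPM in shCxxc5 replicate 2 and 214 CPM in shCtrl replicate 2, against 122 to 124 CPM in the other 4 libraries. Hoxa7, at -0.69 (SE 0.09), and Hoxa10, at -0.59 (SE 0.12), were lower. What sets replicate 2 apart was not tested.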
